A study of Oryza sativa with 5 samples.

Results

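Late embryogenesis abundant (LEA) proteins and dehydrins were followed through the root transcriptomes of rice plants labelled as overexpressing the transcription factor gene OsNAC6 or as knocked out for it. Members were all transcripts whose deposited function text contained, in any case, late embryogenesis abundant, LEA protein, dehydrin, Rab16, RAB-17, RAB21 or water stress inducible. This rule took 34 of 40925 transcripts, from 32 of 34330 loci, and 30 of the 34 were listed in all 3 deposited tables. The rule itself reads only the function text, but it was proposed with earlier results of these data known.

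The roots came from seedlings at an age of 2 weeks, grown in soil in a greenhouse under normal conditions, without drought. There were 5 groups with 1 library each. RCc3::OsNAC6 and GOS2::OsNAC6 plants were Nipponbare rice carrying OsNAC6 behind the RCc3 promoter, which is active in roots, or behind the GOS2 promoter, which is active in the whole plant, and their control was nontransgenic Nipponbare, NT (Nipponbare). The nac6 plants were Hwayoung rice with a T-DNA insertion in OsNAC6, and their control was nontransgenic Hwayoung, NT (Hwayoung). Which transgenic line was sequenced, and how many plants were pooled in a library, are not given in the sources used here. Since no group had a second library, no difference could be tested against the variation between plants. Errors below are standard errors from read counts and cover counting error only.

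The libraries held between 22909719 reads (nac6) and 26838552 reads (NT (Nipponbare)), and between 38087 and 39010 transcripts had at least 1 read. OsNAC6 itself (Os01t0884300-01, chromosome 1) did not follow the labels. Levels are given as RPM, the reads of a transcript in 1000000 reads of its library. OsNAC6 had 233 RPM in the library labelled RCc3::OsNAC6 and 279 RPM in that labelled GOS2::OsNAC6, against 232 RPM in that labelled NT (Nipponbare). The log2 ratios were -0.02 ± 0.03 and 0.37 ± 0.03. It had 359 RPM in the library labelled nac6, against 322 RPM in that labelled NT (Hwayoung), a log2 ratio of 0.31 ± 0.03. Neither of the first 2 libraries was 2-fold above its control in this transcript and the mutant library was not below it, so every direction below rests on the labels of the libraries. Whether reads of the transgenes map to this transcript, and where in the gene the T-DNA lies, are not known here. The paper reported high OsNAC6 RNA by gel blot in roots of older plants with either construct, and described nac6 as a null mutant. The root markers RCc3, Lsi1 and Lsi2 were present in all 5 libraries. Their sum was 2167 and 2232 RPM in the libraries labelled RCc3::OsNAC6 and GOS2::OsNAC6 and 1721 RPM in that labelled NT (Nipponbare). It was 1839 RPM in that labelled nac6 and 1863 RPM in that labelled NT (Hwayoung). These sums hide opposite directions of the single markers. RCc3 had 637.5 RPM in NT (Nipponbare) and 206.0 RPM in NT (Hwayoung). In the same libraries Lsi1 had 398.6 and 644.7 RPM, and Lsi2 had 684.5 and 1013.0 RPM. Against NT (Nipponbare), the log2 ratios of RCc3, Lsi1 and Lsi2 were 0.95, -0.22 and 0.25 in the library labelled GOS2::OsNAC6. They were 0.56, 0.41 and -0.07 in that labelled RCc3::OsNAC6.

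LEA proteins are small, mostly very hydrophilic proteins that accumulate late in seed maturation, when the embryo dries, and in vegetative tissue under water deficit, cold or salt. They are thought to protect proteins and membranes as water is lost. Many of their genes are induced by the hormone abscisic acid (ABA) through ABA response elements in their promoters. Dehydrins, the best known LEA class of vegetative tissue, carry a lysine-rich segment that binds membranes, and the rice RAB16 genes took their name from being responsive to ABA. LEA-14 proteins are an atypical, more hydrophobic and folded class.

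The members together were lower in the library labelled RCc3::OsNAC6, and to a lesser degree in that labelled GOS2::OsNAC6, than in NT (Nipponbare). Their reads summed to 799 RPM in the library labelled RCc3::OsNAC6 and 1531 RPM in that labelled GOS2::OsNAC6, against 1838 RPM in that labelled NT (Nipponbare). In the Hwayoung pair they summed to 1319 RPM in the library labelled nac6, against 889 RPM in that labelled NT (Hwayoung). A single dehydrin, Os02t0669100-01, held between 30.2% and 49.0% of these reads. Without it the sums were 477 and 782 RPM in the libraries labelled RCc3::OsNAC6 and GOS2::OsNAC6, against 973 RPM in NT (Nipponbare), and 916 RPM in that labelled nac6, against 621 RPM in NT (Hwayoung). The order of the libraries within each pair was thus the same with and without that transcript. Both sums count in full transcripts with nearly equal reads: the isoforms of Os03t0843300 and of Os05t0584200, and Os09t0482300-01 with Os09t0482550-01. Each such pair is perhaps 1 measurement and may weigh on the Hwayoung difference. Os09t0482300-01 alone had 122 RPM in the library labelled nac6, against 47.8 RPM in NT (Hwayoung), and Os05t0584200-01 had 134 RPM, against 83.2 RPM.

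**Figure D1:**
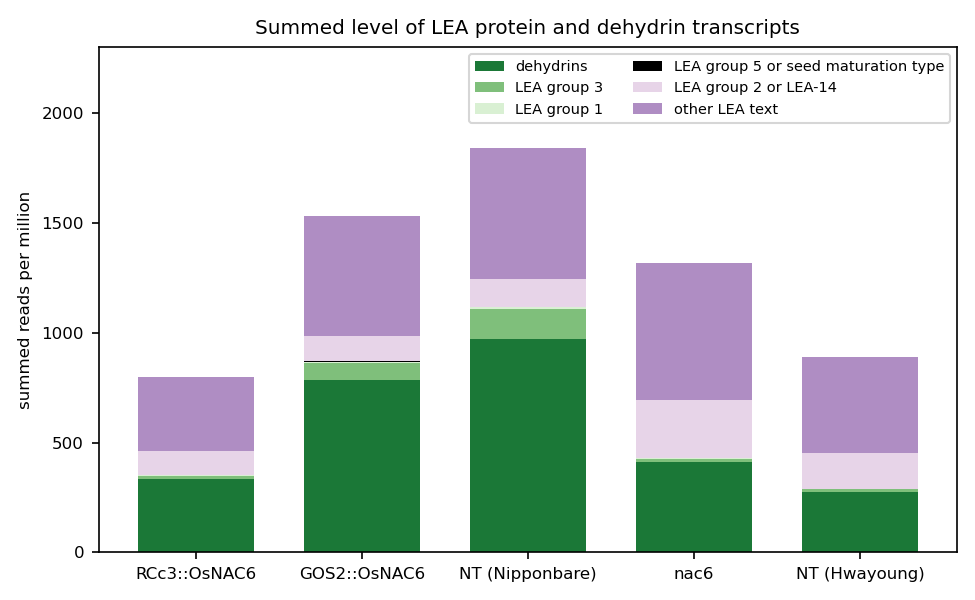
Summed RPM (vertical axis, from 0) of the LEA protein and dehydrin transcripts in each root library, stacked by class of the function text. The library labelled RCc3::OsNAC6 had the lowest sum, 799 RPM, and that labelled NT (Nipponbare) the highest, 1838 RPM, and most of the gap lay in the dehydrins, with 333 RPM and 971 RPM. Each bar is 1 library, so there are no error bars. Transcripts with nearly equal reads, perhaps 1 measurement, are each counted in full.

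Of the 34 members, 25 passed the filter of a mean of at least 10 normalised read counts over the pair in the comparison of RCc3::OsNAC6 with NT (Nipponbare). A difference was called at 2-fold, the threshold of the study. At that threshold 13 of the 25 were lower (52.0%), against 6.03% of the 32487 transcripts that passed, and 1 was higher (4.0%), against 4.47%. Of these 13, 4 passed only through the NT (Nipponbare) library, with under 10 normalised counts in that labelled RCc3::OsNAC6 (Os03t0322900-00, Os11t0451700-00, Os11t0454000-01 and Os12t0626500-00), so the share describes the members past the filter and supports nothing further. Without a filter 15 of 32 listed members were at least 2-fold lower, and with a minimum of 50 counts 8 of 16 were. The shares of all transcripts under these filters were not computed, so these counts have no background beside them. The median log2 ratio of the 25 was -1.46, where that of all transcripts was 0.01, and it was -0.82 without a filter. The 95% counting interval lay below 0 for 21 and above 0 for 1 of them. The 21 include pairs with nearly equal reads, each perhaps 1 measurement: the isoforms of Os03t0843300 and of Os05t0584200, and Os09t0482300-01 with Os09t0482550-01. In the comparison of GOS2::OsNAC6 with NT (Nipponbare), 24 members passed, and 6 of these were at least 2-fold lower (25%), against 2.00% of 31987 transcripts. None was 2-fold higher, against 1.83% of all transcripts. Of the 6 lower members, Os12t0158900-00 passed only through the NT (Nipponbare) library. The median of the members was -0.22, beside -0.01 for all transcripts. Both comparisons share the NT (Nipponbare) library, so a high or low value of that library enters both.

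**Figure D2:**
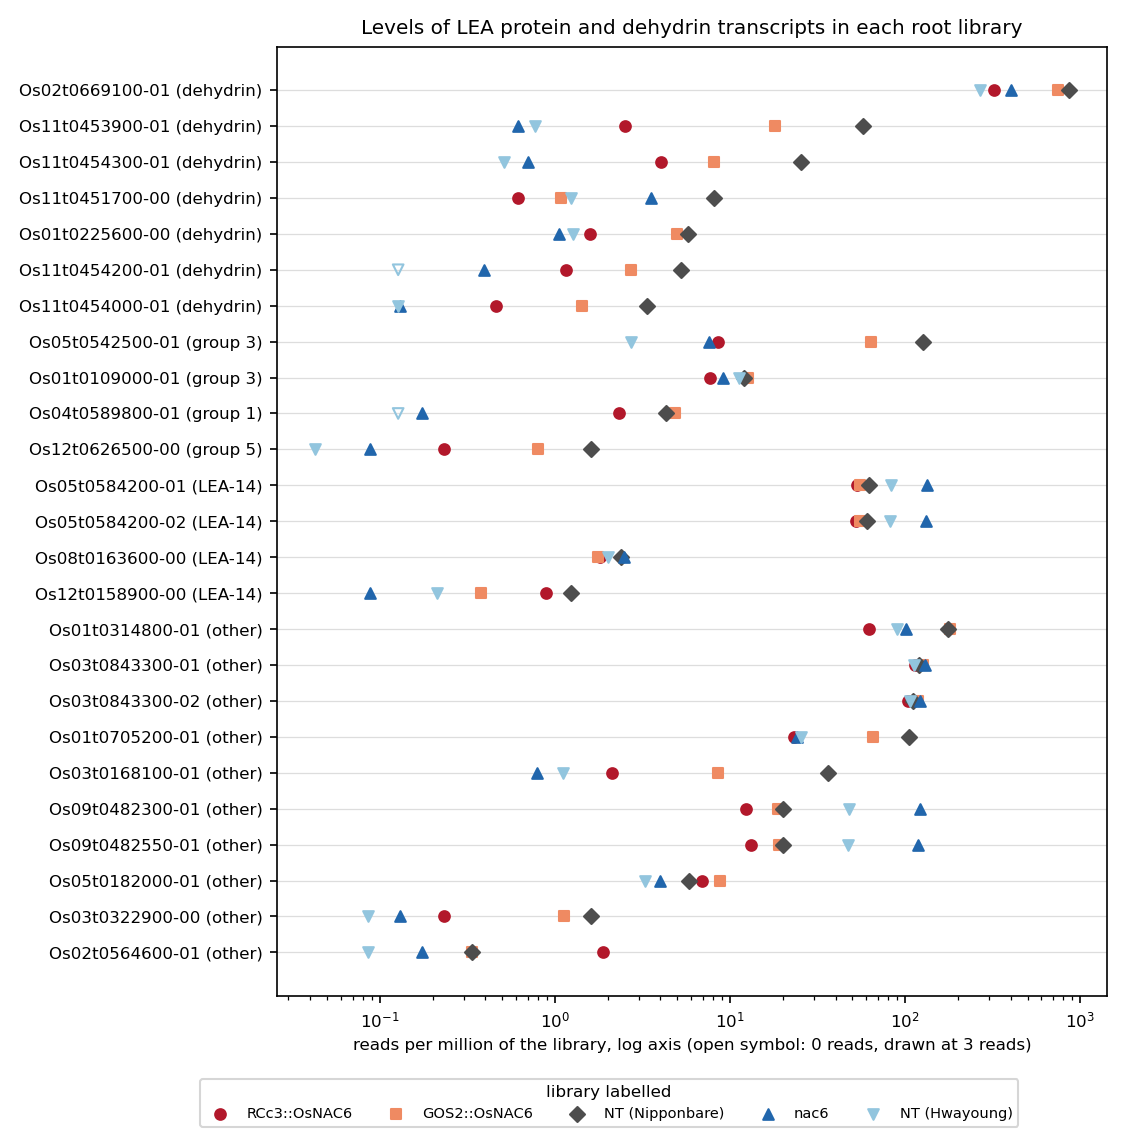
RPM (horizontal log axis) for the 25 LEA protein and dehydrin transcripts that passed the filter in at least 1 comparison, with 1 symbol per library and the class of the function text in brackets. Open symbols mark 0 reads and stand at the level of 3 reads. Os11t0453900-01 (RAB16D) ran from 0.611 RPM in the library labelled nac6 to 57.4 RPM in NT (Nipponbare), while Os03t0843300 lay between 103 and 130 RPM in all 5 libraries.

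All 7 dehydrins that passed the filter were at least 2-fold lower in the library labelled RCc3::OsNAC6 than in NT (Nipponbare), with a median log2 ratio of -2.66. In the library labelled GOS2::OsNAC6, 4 of the 7 were, with a median of -1.09. Of all transcripts past the filter, 6.03% and 2.00% were at least 2-fold lower in these comparisons. Os11t0451700-00 and Os11t0454000-01 passed the filter only through NT (Nipponbare). The count of 7 therefore describes the dehydrins past the filter and supports nothing further. The 2 dehydrins under the filter had few reads, and more of them in the library labelled RCc3::OsNAC6 than in NT (Nipponbare). Among the 7 are 4 loci of chromosome 11 with neighbouring identifiers, which the function text names RAB16D, RAB16C, RAB16B and RAB21. The RefSeq gene table of another rice assembly gives genes of these names in the same order, with 2 genes between RAB16C and RAB16B and none between the other neighbours. They encode closely related dehydrins, so reads of one may have been counted for another, and their sum is safer than each value.

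RAB16D (Os11t0453900-01) had 2.51 RPM in the library labelled RCc3::OsNAC6 and 18.0 RPM in that labelled GOS2::OsNAC6, against 57.4 RPM in NT (Nipponbare). It was 22.8-fold lower in the first (log2 ratio -4.51 ± 0.24) and 2.97-fold lower in the second (-1.57 ± 0.10), and -4.51 was the lowest log2 ratio of the members past the filter. In the Hwayoung pair it was scarce in both libraries, with 14 reads in that labelled nac6 and 18 reads in that labelled NT (Hwayoung), under the filter. RAB21 (Os11t0454300-01), which the function text calls a water-stress inducible protein, had 4.01 and 8.06 RPM in the libraries labelled RCc3::OsNAC6 and GOS2::OsNAC6, against 25.3 RPM in NT (Nipponbare). Its log2 ratios were -2.66 ± 0.20 and -1.54 ± 0.16. It had 16 reads in the library labelled nac6 and 12 reads in that labelled NT (Hwayoung). The other 2 neighbours lay in the same order across the Nipponbare libraries. RAB16C (Os11t0454000-01) had 12 and 34 reads in the libraries labelled RCc3::OsNAC6 and GOS2::OsNAC6, against 90 reads in NT (Nipponbare), with log2 ratios of -2.69 ± 0.51 and -1.09 ± 0.37. The GOS2::OsNAC6 value lies close to the 2-fold line and was under it with a pseudocount of 5 and in one of the count columns. RAB16B (Os11t0454200-01) had 30 and 65 reads, against 141 reads, and log2 ratios of -2.14 ± 0.36 and -0.84 ± 0.28, the second short of 2-fold. RAB16C had 3 reads in each Hwayoung library, and RAB16B had 9 reads in that labelled nac6 and 0 reads in that labelled NT (Hwayoung). Summed, the 4 loci held 8.14 RPM in the library labelled RCc3::OsNAC6 and 30.2 RPM in that labelled GOS2::OsNAC6, against 91.3 RPM in NT (Nipponbare). They held 1.83 RPM in the library labelled nac6, against 1.4 RPM in NT (Hwayoung).

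Os11t0451700-00, whose text likens it to the maize dehydrin DHN1 or RAB-17, was low in both libraries labelled with an OsNAC6 construct. It had 16 reads in the library labelled RCc3::OsNAC6 and 26 reads in that labelled GOS2::OsNAC6, against 218 reads in NT (Nipponbare). The log2 ratios were -3.60 ± 0.45 and -2.72 ± 0.37, and the second was the lowest of the members past the filter in that comparison. Of the dehydrins past the filter in the Hwayoung pair it alone exceeded 2-fold. It had 81 reads in the library labelled nac6, against 29 reads in that labelled NT (Hwayoung), a log2 ratio of 1.62 ± 0.39.

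The remaining 2 of these dehydrins were lower in the library labelled RCc3::OsNAC6 and close to the control in that labelled GOS2::OsNAC6. Os02t0669100-01, described only as a dehydrin family protein, held the most reads of all members. It had 322 RPM in the library labelled RCc3::OsNAC6 and 750 RPM in that labelled GOS2::OsNAC6, against 866 RPM in NT (Nipponbare), with log2 ratios of -1.46 ± 0.02 and -0.11 ± 0.02. In the Hwayoung pair it had 404 RPM in the library labelled nac6 and 269 RPM in that labelled NT (Hwayoung), a log2 ratio of 0.74 ± 0.03, short of 2-fold. Os01t0225600-00 had 41 and 119 reads in the libraries labelled RCc3::OsNAC6 and GOS2::OsNAC6, against 154 reads in NT (Nipponbare). Its log2 ratios were -1.83 ± 0.32 and -0.10 ± 0.23, and the GOS2::OsNAC6 interval, from -0.56 to 0.35, spans 0. It had 24 reads in the library labelled nac6 and 30 reads in that labelled NT (Hwayoung), with an interval from -1.08 to 0.84. Within the Nipponbare libraries, the RPM of all 7 dehydrins past the filter was lowest in that labelled RCc3::OsNAC6. It was intermediate in that labelled GOS2::OsNAC6 and highest in NT (Nipponbare). Os11t0451700-00 and RAB16C passed only through NT (Nipponbare), the highest library in that order. That order held for 16 of the 25 members (64.0%) and for 18.1% of the 32487 transcripts.

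**Figure D3:**
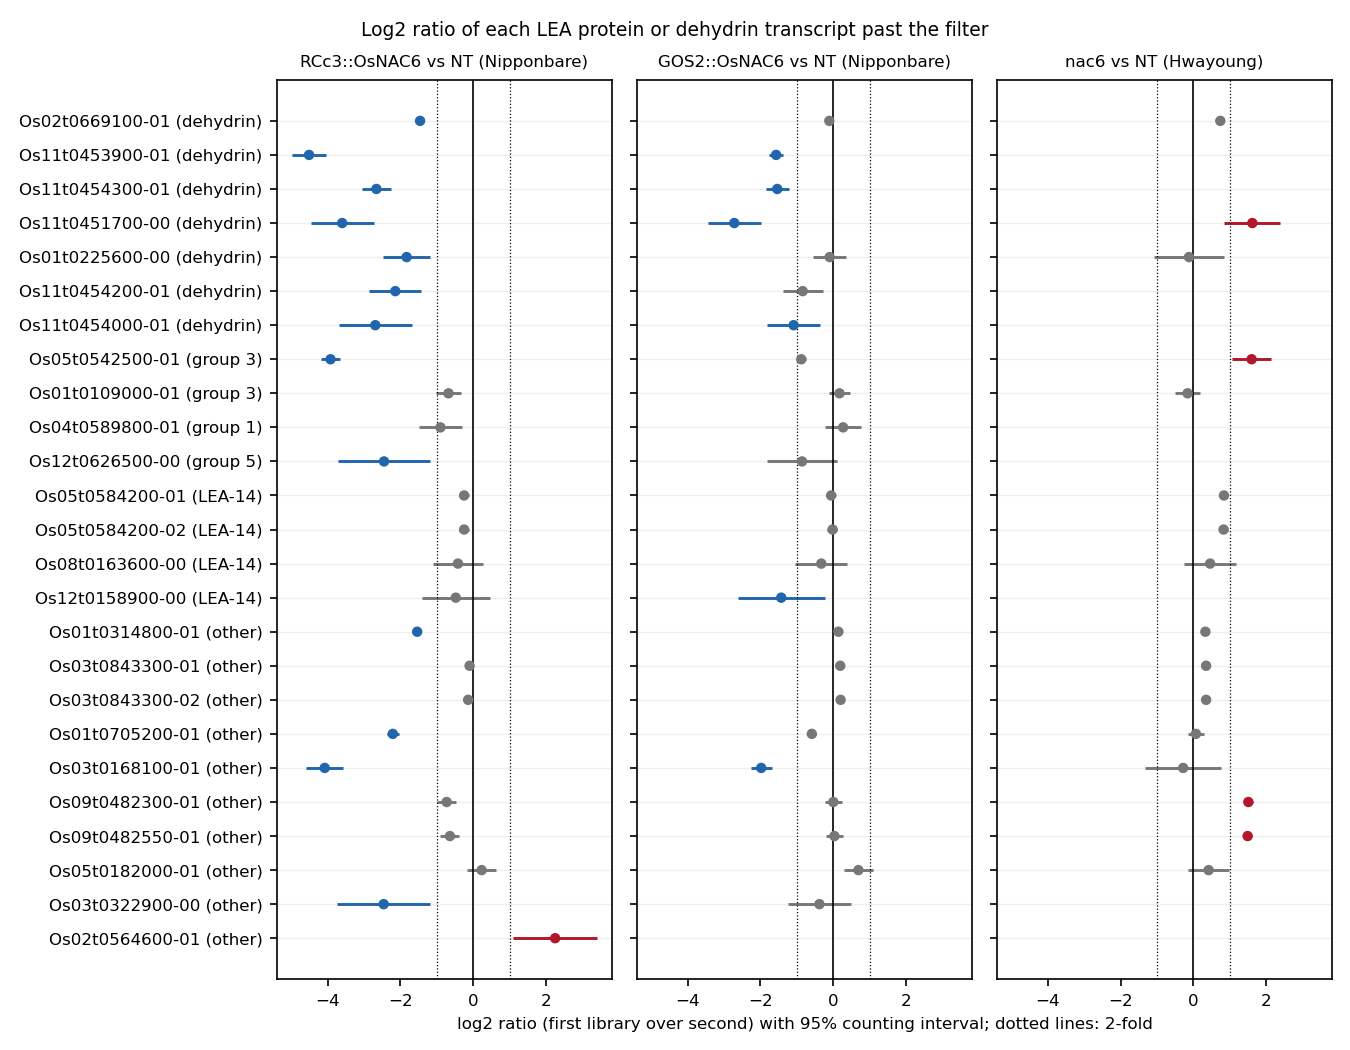
Log2 ratio (horizontal axis) of each LEA protein and dehydrin transcript past the filter in the 3 comparisons, first named library over the second, with its 95% counting interval. Blue points were at least 2-fold lower, red points at least 2-fold higher and grey points neither, and dotted lines mark 2-fold. In the left panel 13 points are blue and 1 is red, in the middle panel 6 are blue, and in the right panel 4 are red.

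The LEA proteins of group 3 carry repeats of a short motif that can fold into a helix on drying. Os05t0542500-01, of this group, had 8.48 RPM in the library labelled RCc3::OsNAC6 and 63.9 RPM in that labelled GOS2::OsNAC6, against 126 RPM in NT (Nipponbare). It was 15.1-fold lower in the first (log2 ratio -3.92 ± 0.13) and 1.84-fold lower in the second (-0.88 ± 0.06), short of 2-fold. In the Hwayoung pair it had 7.55 RPM in the library labelled nac6, against 2.72 RPM in that labelled NT (Hwayoung), a log2 ratio of 1.60 ± 0.27. On the log2 scale the 2 control libraries differed more from each other in this transcript, by -5.50 ± 0.23, than either differed from its transgenic or mutant partner. The other group 3 member past the filter, Os01t0109000-01, varied little. It had 7.64 and 12.7 RPM in the libraries labelled RCc3::OsNAC6 and GOS2::OsNAC6, against 12.0 RPM in NT (Nipponbare), and 9.08 RPM in that labelled nac6, against 11.2 RPM in NT (Hwayoung). The log2 ratios were -0.68 ± 0.17, 0.17 ± 0.15 and -0.16 ± 0.18.

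Of 4 transcripts whose text says only that the protein contains LEA repeats, 3 passed the filter. All 3 were at least 2-fold lower in the library labelled RCc3::OsNAC6, against 6.03% of all transcripts. Of these, Os03t0322900-00 passed only through NT (Nipponbare). Os03t0168100-01 had 55 reads in that library and 204 reads in that labelled GOS2::OsNAC6, against 975 reads in NT (Nipponbare). Its log2 ratios were -4.08 ± 0.26 and -1.98 ± 0.15. It had 18 reads in the library labelled nac6 and 26 reads in that labelled NT (Hwayoung). Os01t0705200-01 had 23.0 and 65.2 RPM in the libraries labelled RCc3::OsNAC6 and GOS2::OsNAC6, against 105 RPM in NT (Nipponbare), with log2 ratios of -2.21 ± 0.09 and -0.59 ± 0.06. It differed little in the Hwayoung pair, with 24.1 RPM in the library labelled nac6, against 25.5 RPM in NT (Hwayoung). Os03t0322900-00 had 6 and 27 reads, against 43 reads in NT (Nipponbare), and log2 ratios of -2.46 ± 0.65 and -0.38 ± 0.44. It had 3 reads in the library labelled nac6 and 2 reads in that labelled NT (Hwayoung). The fourth, Os02t0250600-01, had 4 and 9 reads in the libraries labelled RCc3::OsNAC6 and GOS2::OsNAC6, against 6 reads in NT (Nipponbare), under the filter. Os12t0626500-00, likened to the D-34 protein of seed maturation, had 6 and 19 reads in the libraries labelled RCc3::OsNAC6 and GOS2::OsNAC6, against 43 reads, and log2 ratios of -2.45 ± 0.64 and -0.86 ± 0.49. It had 2 reads in the library labelled nac6 and 1 read in that labelled NT (Hwayoung).

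The 2 transcripts described as LEA protein 3 family went in opposite directions in the library labelled RCc3::OsNAC6. Os01t0314800-01 had 61.7 RPM there and 181 RPM in the library labelled GOS2::OsNAC6, against 175 RPM in NT (Nipponbare), with log2 ratios of -1.54 ± 0.06 and 0.14 ± 0.04. In the Hwayoung pair it had 102 RPM in the library labelled nac6, against 90.1 RPM in NT (Hwayoung), a log2 ratio of 0.33 ± 0.06. Os02t0564600-01 had 49 reads in the library labelled RCc3::OsNAC6 and 8 reads in that labelled GOS2::OsNAC6, against 9 reads in NT (Nipponbare). Its log2 ratio of 2.25 ± 0.58 for RCc3::OsNAC6 was the only one above 2-fold among the members past the filter in that comparison, which it passed through the library labelled RCc3::OsNAC6 alone, and the transcript did not pass the filter when the first count column was used alone.

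Members of the LEA-14 class were not 2-fold different in the library labelled RCc3::OsNAC6. Os05t0584200, likened to the cotton protein Lea14-A, is listed with 2 isoforms whose reads differed by little, between 97.6% and 99.8% of each other, so that the isoforms cannot be told apart. Isoform Os05t0584200-01 had 53.4 and 55.5 RPM in the libraries labelled RCc3::OsNAC6 and GOS2::OsNAC6, against 61.96 RPM in NT (Nipponbare), and log2 ratios of -0.25 ± 0.07 and -0.06 ± 0.07. In the library labelled nac6 it had 134 RPM, against 83.2 RPM in NT (Hwayoung), and a log2 ratio of 0.84 ± 0.06, short of 2-fold. Os08t0163600-00 had between 42 and 64 reads in every library, and all 3 of its intervals span 0. Os12t0158900-00 had 23 and 9 reads in the libraries labelled RCc3::OsNAC6 and GOS2::OsNAC6, against 33 reads in NT (Nipponbare). It was the only member called lower for GOS2::OsNAC6 (-1.43 ± 0.61) and not for RCc3::OsNAC6 (-0.48 ± 0.48), and the counting intervals of these values overlap. In the Hwayoung pair it had 2 reads in the library labelled nac6 and 5 reads in that labelled NT (Hwayoung).

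Among the other members, the 2 isoforms of Os03t0843300, an LEA protein 2 family locus, were close to constant. Isoform Os03t0843300-01 had 114 and 127 RPM in the libraries labelled RCc3::OsNAC6 and GOS2::OsNAC6, against 120 RPM in NT (Nipponbare), and 130 RPM in that labelled nac6, against 113 RPM in NT (Hwayoung). Its log2 ratios were -0.10 ± 0.05, 0.19 ± 0.05 and 0.35 ± 0.05. Os05t0182000-01 had 6.94 and 8.73 RPM in the libraries labelled RCc3::OsNAC6 and GOS2::OsNAC6, against 5.81 RPM in NT (Nipponbare), and its log2 ratio of 0.69 ± 0.20 for GOS2::OsNAC6 was the highest of the members past the filter in that comparison. It had 3.97 RPM in the library labelled nac6, against 3.27 RPM in NT (Hwayoung). The group 1 member Os04t0589800-01 had 60 and 116 reads in the libraries labelled RCc3::OsNAC6 and GOS2::OsNAC6, against 115 reads in NT (Nipponbare), with log2 ratios of -0.90 ± 0.30 and 0.27 ± 0.25. It had 4 reads in the library labelled nac6 and 0 reads in that labelled NT (Hwayoung), where 0 reads allow up to 0.127 RPM.

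In the library labelled nac6 the members lay, if anything, on the higher side. Of the 34 members, 16 passed the filter in the Hwayoung pair, and 4 of these reached 2-fold on the higher side (25%), against 6.30% of 30767 transcripts. None was 2-fold lower, against 3.65% of all transcripts. Their median log2 ratio was 0.44, beside -0.01 for all transcripts, and the counting interval lay above 0 for 10 and below 0 for none. Those 10 include both isoforms of Os03t0843300 and of Os05t0584200 and both transcripts with an LEA-18 domain. Each such pair had nearly equal reads and may be 1 measurement. With isoforms summed per locus, 4 of 14 loci reached 2-fold on the higher side, a share that was not computed for all loci. Scaling by library totals shifted the ratios of all transcripts in this pair by a median of -0.15, and the median of the members was then 0.29. Besides Os05t0542500-01 and Os11t0451700-00, both transcripts with an LEA-18 domain were called. Os09t0482300-01 had 122 RPM in the library labelled nac6, against 47.8 RPM in NT (Hwayoung), a log2 ratio of 1.51 ± 0.07. In the Nipponbare libraries it had 12.3 RPM in that labelled RCc3::OsNAC6 and 18.7 RPM in that labelled GOS2::OsNAC6, against 20.1 RPM in NT (Nipponbare), with log2 ratios of -0.73 ± 0.13 and 0.00 ± 0.12. Os09t0482550-01 held between 97.2% and 107.0% as many reads in each library, with a log2 ratio of 1.49 ± 0.07 in the Hwayoung pair. These 2 loci may share reads, in which case they are 1 measurement and not 2, and both are counted among the 4.

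NT (Nipponbare) was the highest library for 13 of the 25 members with at least 50 reads in all, a share not computed for all transcripts. The libraries labelled RCc3::OsNAC6 and GOS2::OsNAC6 were therefore also compared directly, a comparison chosen after the data were seen. On reads scaled to library totals, 22 members passed the filter, and 10 were at least 2-fold lower in the library labelled RCc3::OsNAC6 than in that labelled GOS2::OsNAC6 (45.5%), against 4.64% of 32132 transcripts. Only Os02t0564600-01 was higher (4.55%), against 6.83%. It passed only through the library labelled RCc3::OsNAC6, and RAB16C among the 10 passed only through that labelled GOS2::OsNAC6. The median was -0.87, beside 0.13 for all transcripts. The lowest log2 ratios were those of Os05t0542500-01, at -2.90 ± 0.14, and RAB16D, at -2.80 ± 0.25. Os02t0669100-01 was at -1.22 ± 0.03. For Os11t0451700-00 the interval, from -1.82 to 0.33, spans 0. Markers of other tissues were lower in this comparison too. Of the seed markers, 5 of 24 were at least 2-fold lower and 0 higher (20.8% lower, median -0.15), and of the shoot markers 5 of 17 were lower and 0 higher (29.4% lower, median -0.74). Their part in the levels of the members was not tested.

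The members also differed between the nontransgenic libraries of the cultivars, again a comparison chosen after the data were seen. Of 23 members past the filter, 13 were at least 2-fold lower in NT (Hwayoung) than in NT (Nipponbare) (56.5%), against 16.1% of 32071 transcripts. The 2 transcripts with an LEA-18 domain were higher (8.7%), against 8.21%. The median was -2.04, beside -0.21 for all transcripts. With a minimum of 50 counts the median was -0.89 and 7 of 16 members were lower, and without a filter 20 of 33 were. For all transcripts the shares under these filters were not computed. All 7 dehydrins past the filter were lower. RAB16D, RAB16C, RAB16B and RAB21 among them passed only through NT (Nipponbare), with under 10 scaled counts in NT (Hwayoung). So did Os03t0322900-00, Os04t0589800-01 and Os12t0626500-00 among the 13. These shares therefore describe the members past the filter and support nothing further. RAB16D had 0.764 RPM in NT (Hwayoung), against 57.4 RPM in NT (Nipponbare), 68.0-fold lower (log2 ratio -6.09 ± 0.41). RAB16B had 0 reads in NT (Hwayoung) and 141 reads in NT (Nipponbare), at least 41.3-fold lower when 3 reads are taken for 0. For Os04t0589800-01, with 0 reads against 115 reads, the bound was 33.7-fold. The difference between these 2 control libraries was larger, for several members, than that between the library labelled RCc3::OsNAC6 and its control. On the log2 scale it was so for Os05t0542500-01 and for every dehydrin past the filter except Os11t0451700-00. For Os01t0225600-00 and RAB16C the counting intervals of the 2 ratios overlap. The median of all transcripts was -0.21 between the control libraries, scaled by library totals. It was 0.01 for RCc3::OsNAC6 against NT (Nipponbare), scaled by the size factors. For Os02t0669100-01 (-1.69 against -1.46) and Os01t0225600-00 (-2.10 against -1.83) the ratios differ by little more than these medians do. Cultivar, growth and library cannot be told apart here. Because 18 members did not pass the filter in the Hwayoung pair, against 9 in that of RCc3::OsNAC6, the nac6 comparison leaves most of the dehydrins without a usable value, and a fall from levels this low was not detectable at this depth.

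Other genes of ABA and dehydration responses were taken by words of the function text, with the members left out. In the library labelled RCc3::OsNAC6, 7 of 36 transcripts of ABA synthesis and signalling (19.4%) were at least 2-fold lower than in NT (Nipponbare) and none higher (median -0.32), where 6.03% of all transcripts were lower. Among protein phosphatases 2C, a family that includes the negative regulators of ABA signalling, 11 of 67 (16.4%) were lower and none higher (median -0.29). In compatible solute synthesis, 5 of 23 (21.7%) were lower and 2 higher (median -0.02). Among other ABA or stress inducible proteins 6 of 46 (13.0%) were lower and 1 higher (median -0.18). These lists count transcripts, as the share of all transcripts does, so isoforms of 1 locus enter separately. Of the 6, Os02t0543000-01, Os02t0543000-03 and Os02t0543000-05 are isoforms, and Os02t0543000-04 is among the 7. Isoforms of Os06t0211200 also stand among the 7, and those of Os01t0846300 and of Os02t0471500 among the 11. The 2 higher in compatible solute synthesis are isoforms of Os01t0848200. In the comparison of GOS2::OsNAC6 with NT (Nipponbare), each of these 4 lists had 1 transcript at least 2-fold lower, or 2.78%, 1.49%, 4.35% and 2.22% in the same order, near the 2.00% of all transcripts, and the first list had 1 higher. In the library labelled nac6, 2 of 34 (5.88%), 3 of 67 (4.48%), 2 of 22 (9.09%) and 6 of 42 (14.3%) were at least 2-fold higher than in NT (Hwayoung), where 6.30% of all transcripts were, and 1, in compatible solute synthesis, was lower. The isoforms of Os02t0543000 named above are among the transcripts higher in that library. The members' own shares past 2-fold were 52.0% lower, 25% lower and 25% higher in these comparisons.

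Markers of other tissues were read beside these results, since LEA transcripts are abundant in seeds and a young root sample can hold remains of the grain or shoot. In whole roots, fewer cells of a type and less RNA per cell cannot be told apart. The seed list was 52 transcripts whose function text names glutelin, prolamin, oleosin or seed storage, chosen by these words alone. It summed to 860 RPM in the library labelled RCc3::OsNAC6 and 1160 RPM in that labelled GOS2::OsNAC6, against 956 RPM in NT (Nipponbare). In the Hwayoung pair it summed to 528 RPM in the library labelled nac6, against 587 RPM in NT (Hwayoung). Of 24 past the filter, 2 were at least 2-fold higher and none lower in the library labelled RCc3::OsNAC6 (median 0.06). Between the control libraries, 9 of 23 seed markers (39.1%) were lower and 4 (17.4%) higher in NT (Hwayoung) than in NT (Nipponbare) (median -0.93). Of all transcripts, 16.1% were lower and 8.21% higher. The shoot list (photosystem and chlorophyll a/b proteins, 54 transcripts) summed to 37.1 RPM in the library labelled RCc3::OsNAC6 and 53.8 RPM in that labelled GOS2::OsNAC6, against 58.6 RPM in NT (Nipponbare), and to 59.0 RPM in that labelled nac6, against 56.7 RPM in NT (Hwayoung). Of 17 past the filter, 7 (41.2%) were at least 2-fold lower in the library labelled RCc3::OsNAC6 and none higher (median -0.79), against 6.03% of all transcripts lower. The number of listed transcripts at 0 reads was between 4 and 6 for shoot and between 5 and 11 for seed. The part of shoot or seed RNA in the levels of the members was not tested.

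**Figure D4:**
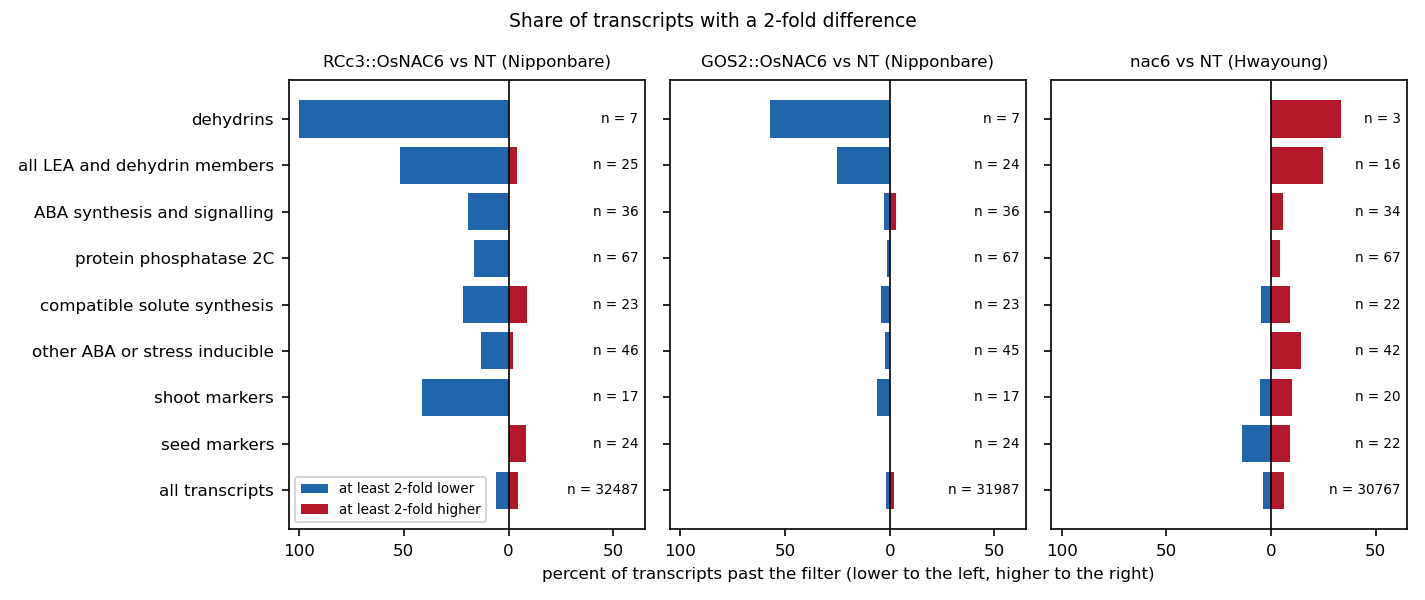
Percent of transcripts past the filter (horizontal axis) that were at least 2-fold lower (blue, to the left) or higher (red, to the right) in each comparison, for the dehydrins, all LEA and dehydrin members, the related lists, the marker lists and all transcripts, with the number past the filter at the right. In the left panel the dehydrins stand at 100% lower and the members at 52.0% lower, against 6.03% of all transcripts. Of the 13 lower members there, 4 passed the filter only through NT (Nipponbare), among them the dehydrins Os11t0451700-00 and Os11t0454000-01.

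There remain 9 members that passed the filter in none of the 3 tables. Together they had 39 and 49 reads in the libraries labelled RCc3::OsNAC6 and GOS2::OsNAC6, against 49 reads in NT (Nipponbare), and 18 reads in that labelled nac6, against 9 reads in NT (Hwayoung). Of these, 2 are dehydrins. Os01t0624400-00 had 19 and 17 reads in the libraries labelled RCc3::OsNAC6 and GOS2::OsNAC6, against 5 reads in NT (Nipponbare). Unlike the dehydrins above, it was thus not lowest in the library labelled RCc3::OsNAC6 among the Nipponbare libraries. The other, Os01t0702500-01, likened to Rab25, had 8 and 2 reads in the same libraries, against 4 reads. The group 1 member Os08t0327700-01 had 2 and 12 reads, against 20 reads in NT (Nipponbare), and 0 reads in both Hwayoung libraries. The other 6 had at most 9 reads in any library.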

How the data were processed

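Strand-specific RNA-seq libraries were made from total RNA of rice roots. The authors deposited 3 tables, 1 for each comparison, that list transcripts with RAP-DB identifiers, their function text and a mean normalised count per library, a signal that they had divided by DESeq size factors. The genome build per the labels was IRGSP-1.0. The aligner and counting rule are not given in the sources used here. The fold changes and p-values of the tables were not used. Every deposited value was the mean of 2 count columns, and whole reads were recovered for 100% of the values above 0, with 1 possible split for every member. What the columns are is not given in the sources used here. Their mean chi-square of 1.76 multiplied the counting variance, and they were not treated as replicates. RPM was computed from recovered reads without correction for transcript length, so a larger RPM of one gene than of another says how many reads it held, not how many transcripts. Ratios were log2((first + 1)/(second + 1)) of the deposited values of a table, which understates the change of low transcripts, for means of at least 10, and intervals were at the 95% level. The recovery was tested on simulated data. Named were OsNAC6, members with a 2-fold difference, dehydrins, the 10 members with the most reads and members near 0 in 1 library of a pair. Members and lists were chosen with earlier results of these data known. Alternatives were other filters, pseudocounts, scalings, count columns and thresholds. Sequences of promoters and proteins were not used here. Calculations used Python 3.11.15, numpy 2.4.6 and pandas 2.3.3.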

Additional observations from a re-analysis of the deposited data

How the results depend on the processing

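Each comparison rests on 1 library per group, so no alternative leaves out a replicate, and depth limits the members with few reads. No paired analysis was possible because each group had 1 library and the labels give no shared replicate numbers. Promoter and protein alternatives were not run.

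For RCc3::OsNAC6 against NT (Nipponbare), the 13 lower members were 8 with a filter of 50, where 16 members passed. The single higher member became 2 with no filter and 0 with a filter of 50 or with the first count column alone. The median of -1.46 was -0.82 with no filter, -1.1 with a filter of 50, -1.41 with the second count column and -1.54 with isoforms summed. For GOS2::OsNAC6, the 6 lower members were 1 at 4-fold, and 1 was higher with no filter where 0 were before. For nac6, the 4 higher members were 8 with no filter and 0 at 4-fold, and the lower members were 1 with no filter and 1 with the first count column, where 0 were before. For RCc3::OsNAC6 against GOS2::OsNAC6, the 10 lower members were 6 with a filter of 50 and 2 at 4-fold, and the 1 higher member was 3 with no filter, 0 with a filter of 50 and 0 with the first count column. For the control libraries, the 13 lower members were 20 with no filter and 7 with a filter of 50, the 2 higher were 0 at 4-fold, and the median of -2.04 was -0.89 with a filter of 50. A filter or a threshold changes which members are counted. For the count columns the cause was not tested. Shares of all transcripts under these alternatives were not computed. Of the called members that still passed the filter, none changed direction in the 3 designed comparisons with a pseudocount of 5, library totals or 1 count column. With the first count column, 12 of 14 called members for RCc3::OsNAC6 and 5 of 6 for GOS2::OsNAC6 passed. Library totals are the main scaling of the 2 added comparisons.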
